A study of Mus musculus with 6 samples.

Results

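Later round spermatids were selected as 789 of the 48939 cell barcodes in 6 single-cell libraries of the mouse testis. A barcode labels the RNA of 1 droplet, taken here as 1 cell, and its depth is its number of unique molecular identifiers (UMIs), which count single captured RNA molecules. The cells were chosen by their own UMI counts: 15000 UMIs or more in all, under 1% of them from the nuclear basic protein genes Prm1, Prm2, Tnp1 and Tnp2, 15 or more from the acrosome genes Acr, Lyzl1, Spaca3 and Spaca7, under 5 from Ssxb1 and Ssxb2, under 5 from Ccna1 and Aurka, and under 10 from Piwil1. The testes came from C57BL/6 mice of 8 weeks fed for 2 weeks on either of 2 diets, high-fat (HFD) and low-fat (LFD), 3 libraries a diet, with no other treatment or allele named. The study's methods give the substrain as C57BL/6N and 3 mice per diet. Of the 789 cells, 187, 79 and 139 came from HFD replicates 1, 2 and 3 and 189, 92 and 103 from LFD replicates 1, 2 and 3, and 0 of them shared a barcode with a selected cell of another library.

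The libraries held 39196921 to 95845514 UMIs, of which these cells gave 4.39% to 8.83%. The diet was taken from the sample titles, but the names of the deposited files give the opposite diet throughout, so the groups are the libraries labelled HFD and LFD, and every sign of a diet difference would turn if the file names were right. The replicate 1 library of each diet had almost no haemoglobin mRNA (0.0209 CPM, defined below, in HFD replicate 1 and 0 in LFD replicate 1, against 30.5 to 99.7 in the other 4 libraries, over all barcodes). In the selected cells, the deviation of a gene from its mean over the libraries went with the GC content of its transcripts in one direction in HFD replicates 2 and 3 (Spearman's rho across 10964 genes -0.424 and -0.380) and in the other in HFD replicate 1 and the 3 LFD libraries (0.165 to 0.330). The calls for diet are therefore also given without HFD replicate 1 and without both replicate 1 libraries.

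Round spermatids are the haploid cells that meiosis leaves. Over the days before they elongate they build the acrosome, a secretory vesicle over the nucleus that carries the enzymes and membrane proteins of fertilization, and begin to assemble the tail. Many of their mRNAs are stored and translated later, when transition proteins and then protamines take the place of histones and transcription ends. Sister spermatids stay joined by cytoplasmic bridges through which RNA can pass.

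Another 2 gates of the same libraries served as neighbours in this course. An early round spermatid gate took 790 barcodes of the same depth and nuclear basic protein share with 5 or more UMIs of Ssxb1 and Ssxb2, X-linked genes of young spermatids, and under 10 of Piwil1. It had no bound on the acrosome genes or on Ccna1 and Aurka. A gate of spermatids starting elongation took 527 barcodes that met every criterion of the later round spermatids except that nuclear basic protein genes made up 1% to under 10% of UMIs. Median depth per library was 30136 to 49673 UMIs in the later round spermatids, 35432 to 53885 in the early gate and 25654 to 41828 in the elongation gate. The counts of single genes below are UMIs scaled to 1000000 UMIs of a gate in a library (CPM), read near the 3-prime end and not scaled by length, with mean ± SD over the 6 libraries. Comparisons between gates have no test, since the gates were drawn on the same counts.

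The selected cells held the markers that define them. Acr, which encodes the acrosomal protease acrosin, was at 261, 258 and 226 CPM in HFD replicates 1, 2 and 3 and 272, 262 and 297 in LFD replicates 1, 2 and 3. Lyzl1, a lysozyme-like gene of the acrosome, was at 683, 708 and 700.2 CPM in HFD replicates 1, 2 and 3 and 682, 603 and 672 in LFD replicates 1, 2 and 3. These levels differed little among libraries, and the 4 genes of the selection had at least 1 UMI each in every one of the 789 cells. Spaca3, a lysozyme-like acrosomal membrane protein, was at 1028, 766 and 798 CPM in HFD replicates 1, 2 and 3 and 1016, 918 and 1032 in LFD replicates 1, 2 and 3. Spaca7, an acrosomal protein released at fertilization, was at 713, 599 and 608 CPM in HFD replicates 1, 2 and 3 and 704, 659.6 and 724 in LFD replicates 1, 2 and 3. HFD replicates 2 and 3 were the lowest libraries for both genes. As a level that free RNA can give, 90 barcodes dominated by Sertoli cell genes, with a median depth of 15158 UMIs, held these 4 genes at 22.5 to 41.1 CPM. The same barcodes held Prm1, Prm2, Tnp1 and Tnp2, which set the 1% bound, at 5577, 7721, 1826 and 2520 CPM. Pooled over the 789 selected cells, these genes were at 1412, 1097, 1345 and 1001 CPM. The part of free RNA in their UMIs was not tested.

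Plin2, which encodes a coat protein of lipid droplets and was not used in the selection, was at 148, 151 and 157 CPM in HFD replicates 1, 2 and 3 and 152, 131 and 168 in LFD replicates 1, 2 and 3. It had a UMI in 97.7% of the cells at their median depth of 34275 UMIs, and in 21.1% of the Sertoli-type barcodes at theirs, where it stood at 21.7 CPM. Its level was lower on both sides, at 49.03 ± 5.14 CPM in the early gate (40.1 to 54.2) and 60.6 ± 12.7 in the elongation gate (49.8 to 83.1) so that every library of the later round spermatids lay above every library of both other gates. The differences were 2.89-fold and 2.41-fold on the scale of log2(CPM + 5), which is used for all folds between gates. Of the genes of the selection, Acr was at 263 ± 23.3 CPM and hardly differed from the early gate (259.9 ± 20.3), whereas Lyzl1 was 2.06-fold, Spaca3 1.84-fold and Spaca7 1.71-fold higher than there.

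**Figure D1:**
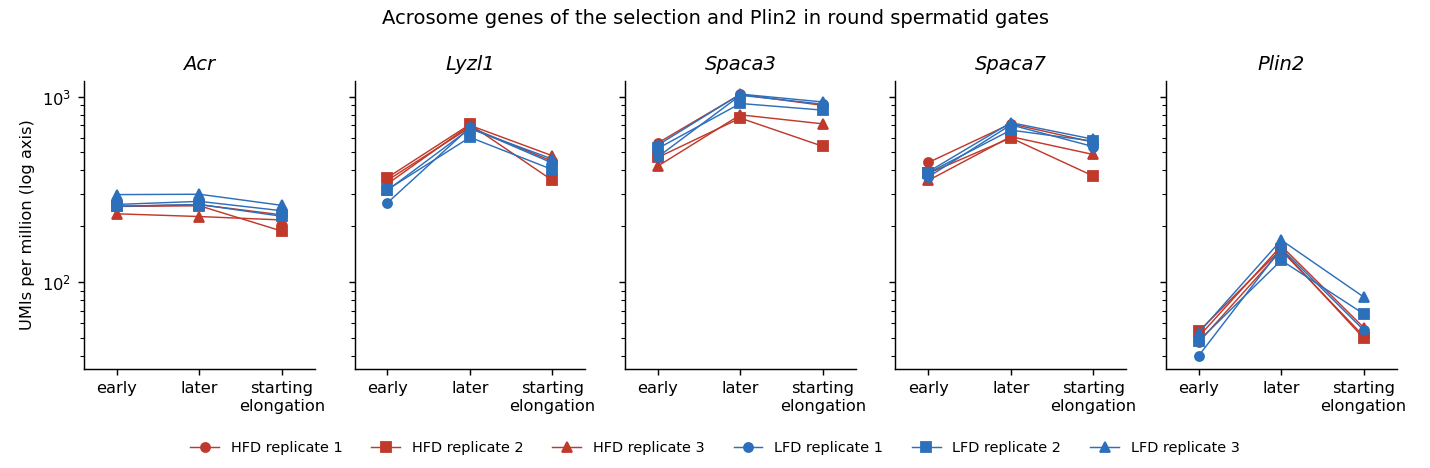
CPM (log axis) of the 4 acrosome genes of the selection and of Plin2 in the early, later and starting-elongation gates, with 1 line for each of the 6 libraries, red for HFD and blue for LFD. Plin2 sits between 131 and 168 CPM in the later gate, above every value of the other gates, while Acr stays between 188 and 297 in all 3.

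The thresholds differ in how sharply they cut. With every other criterion met, no barcode held 15 to 19 acrosome UMIs, 1 held 10 to 14, 16 held 5 to 9 and 280 held 0 to 4, and the lowest selected cell held 20. For Ccna1 and Aurka, a meiotic cyclin and a mitotic kinase whose mRNAs persist in young spermatids, 447 cells just inside held 3 or 4 UMIs and 365 barcodes just outside held 5 or 6. Plin2 was at 149 and 136 CPM in these bands, and at 115 and 81.0 CPM in barcodes with 7 to 9 and 10 to 19 such UMIs. Only 19 barcodes held 5 or 6 UMIs of the Ssxb pair, against 51 cells with 3 or 4, and 22 lay at 1% to 1.2% nuclear basic protein UMIs against 44 at 0.8% to 1%. The count bounds depend on depth: when every deep barcode was thinned to 15000 UMIs, 216 to 389 barcodes per library met the rule and 6 to 29 met that of the early gate.

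Markers of somatic cells, spermatogonia and red blood cells were low. Summed over 11 Sertoli cell genes, of which 9 were detected and Amh and Fshr were at 0, the level was 4.08 to 12.2 CPM in 5 libraries and 27.1 in HFD replicate 1. The 9 Leydig cell genes summed to 0.445 to 3.63 CPM, with Insl3, Hsd3b1 and Hsd17b3 at 0, and the 9 macrophage genes to 9.59 to 13.05 CPM. The 8 peritubular and stromal genes reached 65.9 CPM in HFD replicate 1 and 11.9 to 19.1 in the other libraries. The 10 spermatogonial genes summed to 30.9 to 46.2 CPM, and the 4 haemoglobin genes to at most 0.583. Genes of meiosis were not low, with 13 of prophase at 3199 to 3778 CPM summed and 14 of division at 606 to 704. In the early gate these sums were 3951 to 4321 and 1151 to 1363 CPM.

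The start regions of the leading genes were searched for the element of a spermatid regulator. CREM, the cyclic AMP responsive activator of spermatid genes, binds the cAMP response element, so 250 bases before and 50 after each RefSeq start (GRCm38.p6) were searched on both strands for its full form TGACGTCA and for the shorter TGACG and TACGTCA, the last of which contains the reverse complement of TGACG. Promoters were given for 741 of the 984 genes that were 2-fold higher than in the early gate, as described below. The full form was in the promoters of 17 of them (2.29%), against 3.66% of the 10194 matched genes that were compared and 2.03% of all 27025 genes of the table. TGACG was in 24.7% of the 741 genes, 33.0% of the compared genes and 23.05% of all genes, and TACGTCA in 1.75%, 2.51% and 1.48%. Shown here, 5′ to 3′ on the gene's strand with TGACG on either strand in capitals, are the promoters of 2 selection genes, of Plin2 and of Itsn2, an endocytic adaptor among the genes furthest above the early gate. They lie at chr11:80858113-80858412, plus strand (Spaca3, match 62 bases before the start), chr8:12572786-12573085, plus strand (Spaca7), chr4:86670010-86670309, minus strand (Plin2) and chr12:4592758-4593057, plus strand (Itsn2, match 40 bases before the start, on the opposite strand). Spaca7 and Plin2 held none of the 3 motifs in this window. Of the genes furthest above the early gate that are named below, Tepp, Banf2, Saxo1, Cdyl, Gm16226 and Trim80 held none either. No promoter was given for Pex5l. Another RefSeq start of Spaca3, with its window at chr11:80858139-80858438, had the same match 88 bases before it.
Spaca3: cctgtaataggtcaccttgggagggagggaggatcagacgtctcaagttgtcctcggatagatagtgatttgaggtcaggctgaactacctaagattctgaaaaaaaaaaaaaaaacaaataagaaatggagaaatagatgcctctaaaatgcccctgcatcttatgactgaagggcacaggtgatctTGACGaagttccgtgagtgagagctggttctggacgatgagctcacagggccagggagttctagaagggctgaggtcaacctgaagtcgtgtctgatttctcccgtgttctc
Spaca7: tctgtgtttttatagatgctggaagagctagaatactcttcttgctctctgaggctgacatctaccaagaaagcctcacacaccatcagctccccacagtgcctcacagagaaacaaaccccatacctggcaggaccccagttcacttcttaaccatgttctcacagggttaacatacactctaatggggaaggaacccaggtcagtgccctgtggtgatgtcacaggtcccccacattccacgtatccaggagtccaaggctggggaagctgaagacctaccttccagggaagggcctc
Plin2: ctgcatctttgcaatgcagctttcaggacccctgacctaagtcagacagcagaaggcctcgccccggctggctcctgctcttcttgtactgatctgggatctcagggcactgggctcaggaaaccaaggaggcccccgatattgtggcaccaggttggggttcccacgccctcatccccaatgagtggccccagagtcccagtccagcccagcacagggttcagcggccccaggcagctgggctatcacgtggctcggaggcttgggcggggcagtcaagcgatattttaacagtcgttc
Itsn2: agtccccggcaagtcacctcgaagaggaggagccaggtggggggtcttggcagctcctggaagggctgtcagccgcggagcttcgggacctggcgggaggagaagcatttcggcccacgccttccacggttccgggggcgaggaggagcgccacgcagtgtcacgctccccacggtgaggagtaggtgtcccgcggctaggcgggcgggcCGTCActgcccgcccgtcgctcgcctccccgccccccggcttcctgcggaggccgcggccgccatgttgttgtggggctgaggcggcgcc

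Of 13785 genes with at least 1 CPM in either gate, 984 (7.14%) were at least 2-fold higher in the later round spermatids than in the early gate in all 6 libraries and 366 (2.66%) were at least 2-fold lower, with the genes of the selection left out. The median gene differed by -0.17 on the log2 scale. When every barcode was thinned to 15000 UMIs before both gates were drawn, 383 genes were higher and 26 lower, and the early gate then rested on 6 to 29 barcodes a library.

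The genes furthest above the early gate were nearly silent there. Tepp was at 201, 169 and 163 CPM in HFD replicates 1, 2 and 3 and 238, 206 and 204 in LFD replicates 1, 2 and 3. All of these exceeded its level in the early gate, 2.74 to 7.41 CPM, and the fold was 18.8. Cdyl, a chromodomain protein of spermatid chromatin, was at 249, 338 and 248 CPM in HFD replicates 1, 2 and 3 and 295, 285 and 282 in LFD replicates 1, 2 and 3. It stood at 13.4 ± 3.32 CPM in the early gate. Banf2, a relative of the DNA-bridging factor BAF, was 16.7-fold higher at 227 ± 30.7 CPM, and Saxo1, a microtubule-stabilizing protein of the flagellum, 15.97-fold at 161 ± 12.6 CPM. Next came Gm16226 (15.2-fold), Itsn2 (14.5-fold), the peroxisomal import receptor relative Pex5l (14.2-fold) and Trim80, a tripartite motif gene (13.8-fold). All 8 were higher again on average in the elongation gate, for example Banf2 at 753 ± 147 and Pex5l at 470.2 ± 110.4 CPM.

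At the other end stood mitochondrially encoded mRNAs, which are described below, and 3 nuclear genes. Hspa5, the chaperone BiP of the endoplasmic reticulum, was at 44.7, 56.8 and 47.8 CPM in HFD replicates 1, 2 and 3 and 39.05, 56.7 and 53.1 in LFD replicates 1, 2 and 3. In the early gate it was at 262 to 348 CPM, 5.55-fold more. Pabpc6, a testis poly(A)-binding protein gene, was 5.44-fold lower than in the early gate at 33.4 ± 8.34 CPM, and Pxt1, a peroxisomal testis gene, 5.33-fold lower at 22.05 ± 5.31 CPM.

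Acrosome genes outside the selection were mostly present from the early gate on. Of 40 listed genes, 8 were 2-fold higher than in the early gate in all 6 libraries and 0 were lower, beside 7.14% and 2.66% over all genes. The median log2 difference of the listed genes was 0.51. The summed level was 16383 to 17031 CPM, above 13802 to 15229 in the early gate. Spaca9, a microtubule inner protein first found in the acrosome, was at 871, 803 and 831 CPM in HFD replicates 1, 2 and 3 and 899, 863 and 907 in LFD replicates 1, 2 and 3. It stood at 216 ± 19.2 CPM in the early gate and at 1690.0 ± 241 in the elongation gate. The others were the sperm membrane protein gene Spaca4 (278 to 777 CPM from the early to the later gate), the hyaluronidase Hyal5 (69.04 to 215), equatorin Eqtn (122.8 to 327), Actl9 (41.02 to 212), the protease genes Prss55 (6.41 to 106) and Prss37 (2.33 to 30.6) and the intramembrane protease Sppl2c (3.85 to 63.2). The acrosome genes with the most UMIs differed less from the early gate: Crisp2, a secreted sperm protein, was at 2287 ± 315 CPM (log2 difference -0.24), the protease inhibitor Spink2 at 1645 ± 53.7 (-0.37) and the acrosomal membrane protein Spaca1 at 1125 ± 51.5 (0.80).

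Chromatin genes were higher in the later round spermatids. Of 15 with at least 1 CPM, 8 were 2-fold higher than in the early gate and 0 lower, with a median of 1.31. Over all genes the shares were 7.14% and 2.66%, with a median of -0.17. Hils1, a linker histone of spermatids, was at 1875, 1576 and 1617 CPM in HFD replicates 1, 2 and 3 and 1929, 1738 and 1879.9 in LFD replicates 1, 2 and 3. It was at 623 to 785 CPM in the early gate, below every library of the later one. H1fnt, the polar linker histone, was at 532 ± 23.95 CPM against 37.3 ± 12.02, a difference of 3.71 on the log2 scale. Hmgb4, a testis high mobility group protein, was at 1407 ± 101 against 234 ± 41.9, and Prm3, an acidic protein encoded in the protamine cluster, at 1469 ± 276 against 307 ± 50.9. The histone variant genes H2al2a and H2al1n, the kinase Tssk6 and the remodeller Chd5 made up the rest, with log2 differences of 2.43, 1.96, 1.66 and 1.32. H3f3b, which encodes the replacement histone H3.3, was at 2361 ± 215 CPM against 1127 ± 92.7, under the 2-fold bound in at least 1 library. Another 6 listed symbols were not found in the files and L3mbtl3 was at 0.

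Tail genes were likewise higher or level. Of 34 genes of the flagellum, fibrous sheath and outer dense fibres, 10 were 2-fold higher than in the early gate and 0 lower (median 0.60). Over all genes the shares were 7.14% and 2.66% (median -0.17). Tekt5, a filament protein of the flagellum, was at 99.5 ± 10.6 CPM against 10.99 ± 2.35. Smcp, a protein of the mitochondrial capsule of the midpiece, was at 2957 ± 296 against 1210.2 ± 182, Akap4, the kinase anchor of the fibrous sheath, at 461 ± 30.9 against 175 ± 23.2, and Gapdhs, the sperm form of a glycolytic enzyme, at 919.9 ± 93.6 against 358 ± 31.1. The others were Odf3, Ropn1, Spata18, Hook1, Fam71b and the kinase Tssk2. Odf2 and Tcp11, at 1709.9 ± 159 and 1463 ± 199.1 CPM, differed from the early gate by 0.25 and 0.06 on the log2 scale.

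Among 30 lipid droplet and lipid storage genes, 27 were detected and 18 had at least 1 CPM. Of these 18, 4 were 2-fold higher than in the early gate and 1 lower (median -0.10), beside 7.14% and 2.66% over all genes. The 4 higher ones were Plin2, Dgat2, which makes triglyceride (94.4 to 241 ± 20.4 CPM), the fatty acid carrier gene Fabp12 (82.6 to 217 ± 12.5) and Lipe, hormone-sensitive lipase (6.23 to 21.6 ± 3.86). Hilpda, an inhibitor of triglyceride breakdown, was the lower one, at 10.3 ± 1.14 CPM against 37.9 ± 4.46. In contrast to Plin2, which was lower again in the elongation gate, Dgat2 was at 342 CPM there and Lipe at 92.2, and Plin3, another droplet coat gene, was at 1.41 ± 0.364 CPM in the later round spermatids and 37.4 ± 7.71 in the elongation gate. Pnpla2, which starts triglyceride breakdown, was at 209 ± 30.8 CPM.

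Of 25 regulators of spermatid transcription and translation, 1 was 2-fold higher than in the early gate and 0 lower, with a median of -0.29, beside 7.14% higher, 2.66% lower and a median of -0.17 over all genes. The one was Fhl5, a coactivator of CREM, at 477 ± 8.21 CPM against 74.6 ± 12.2. CREM itself (Crem) was at 635 ± 25.2 against 587 ± 25.1. Ybx3, an mRNA-binding protein of stored messages, was at 1946 ± 119.7 against 2463 ± 101, and the poly(A)-binding protein genes Pabpc1 and Pabpc2 at 1412 ± 144 and 779 ± 48.6 against 1893 ± 167 and 1143 ± 45.7.

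The 10 genes with the most UMIs were mostly level with the early gate. Ldhc, the testis lactate dehydrogenase, was at 6829, 7211 and 7227 CPM in HFD replicates 1, 2 and 3 and 6991, 7219 and 6913 in LFD replicates 1, 2 and 3. It was followed by Meig1 (6396 ± 523 CPM), the lipid carrier gene Fabp9 (4609.8 ± 167), Ropn1l (4245 ± 134), the ubiquitin gene Ubb (4025 ± 473), Gstm5 (3575 ± 236), Gm5617 (3514 ± 485), Smcp, Fam229b (2715 ± 106) and Gpx4, a selenium enzyme of the sperm midpiece (2432 ± 380.2). Apart from Smcp, their log2 differences from the early gate ran from -0.32 (Ubb) to 0.10 (Fam229b).

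Against the spermatids starting elongation, 197 of 13883 genes (1.42%) were at least 2-fold higher in the later round spermatids in all 6 libraries and 522 (3.76%) at least 2-fold lower, with a median of 0.18. The elongation gate of HFD replicate 2 stood apart, with the lowest median depth (25654 UMIs) and, for example, Pxt1 at 59.95 CPM against 4.44 to 8.04 in the others. Without this library the counts were 396 and 727.

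Genes of the round stage were lower in the elongation gate. Tssk5, a testis-specific kinase, was at 81.2, 50.6 and 66.6 CPM in HFD replicates 1, 2 and 3 and 67.1, 71.2 and 80.3 in LFD replicates 1, 2 and 3. It was at 3.61 to 6.56 CPM in the elongation gate, 7.37-fold less, and at 20.7 to 29.7 in the early gate, so that the 3 ranges did not overlap. Spam1, the hyaluronidase PH-20 of the sperm head, was at 236, 321 and 284 CPM in HFD replicates 1, 2 and 3 and 245, 228 and 220.4 in LFD replicates 1, 2 and 3. It was 6.49-fold above the elongation gate (34.9 ± 3.71 CPM). Of 40 listed acrosome genes it was the only one 2-fold higher in all 6 libraries, beside 1.42% of all genes. Smco4, a small membrane protein gene, was 8.22-fold higher at 168 ± 22.7 CPM but already below its early level (229.9 ± 25.1). The other genes furthest above the elongation gate were 1700041C23Rik (6.52-fold), Lrriq1 (5.43-fold), the integrin gene Itgad (5.36-fold), the protease gene Prss46 (4.82-fold) and Gm20268 (4.54-fold). From the regulator list, Tdrd7, a chromatoid body protein, was at 146 ± 12.7 CPM against 38.3 ± 4.89, and Taf7l, a testis subunit of the TFIID complex, at 35.4 ± 4.80 against 10.98 ± 1.51.

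Genes furthest below the elongation gate were 1700016C15Rik (15.9-fold), Gm8251 (14.3-fold), Prss58 (11.8-fold), Paqr5 (11.7-fold), Trp53tg5 (11.6-fold), Cntn1 (11.5-fold), Prss52 (11.3-fold) and Cd46 (10.7-fold). Trp53tg5 was at 22.4, 37.9 and 33.99 CPM in HFD replicates 1, 2 and 3 and 32.96, 26.4 and 32.9 in LFD replicates 1, 2 and 3. In the elongation gate it was at 278 to 458 CPM. Cd46, a complement regulator of the inner acrosomal membrane, was at 4.10 ± 1.12 CPM against 94.5 ± 24.6, and Paqr5, a membrane progestin receptor, at 25.1 ± 4.52 against 344 ± 39.8. Of the listed acrosome genes, Prss55, Prss37 and Sppl2c were lower than in the elongation gate, as were the chromatin genes H2al2a, H2al1n and Tssk6 and the tail gene Fam71b (27.8 ± 5.06 CPM against 335 ± 74.7). They were 3 of 40 acrosome, 3 of 15 chromatin and 1 of 34 tail genes, beside 3.76% of all genes.

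Within the later round spermatids, cells were ordered in each library by their share of nuclear basic protein UMIs, and the lowest and highest terciles (3 groups of equal size) compared. These genes set the order, so it is a description only, and the part of free RNA in their UMIs was not tested. Between the terciles 289 of 13672 genes (2.11%) were at least 2-fold higher in the highest tercile in all 6 libraries and 25 (0.183%) lower, with a median of -0.10. Tuba8, an alpha tubulin, was at 3.88 ± 1.60 CPM in the lowest and 114 ± 10.1 in the highest tercile. Over all selected cells it was at 47.3, 45.4 and 51.3 CPM in HFD replicates 1, 2 and 3 and 46.2, 47.2 and 46.2 in LFD replicates 1, 2 and 3. The libraries were close to each other, and the level lay between that of the early gate (2.53 ± 0.625 CPM) and the elongation gate (381 ± 75.3). Cst13, a cystatin, went from 10.2 to 163 CPM, Hemgn, known from blood cell precursors, from 4.46 to 86.2, 1700017M07Rik from 1.10 to 52.9 and 1190005I06Rik from 1.44 to 54.3. Lower in the highest tercile were Gm6588 (68.7 to 9.14 CPM), the dynactin subunit Dctn6 (60.1 to 12.04), Spag1, a dynein assembly factor (51.6 to 11.4), Cabcoco1 (128 to 37.7) and Hdgfl1 (234 to 78.6). Plin2 (143 and 155 CPM) and Acr (259 and 260.3) were level across the terciles. Of the 984 genes above the early gate, 215 were also 2-fold higher in the highest than in the lowest tercile, and 126 were 2-fold lower than in the elongation gate.

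**Figure D2:**
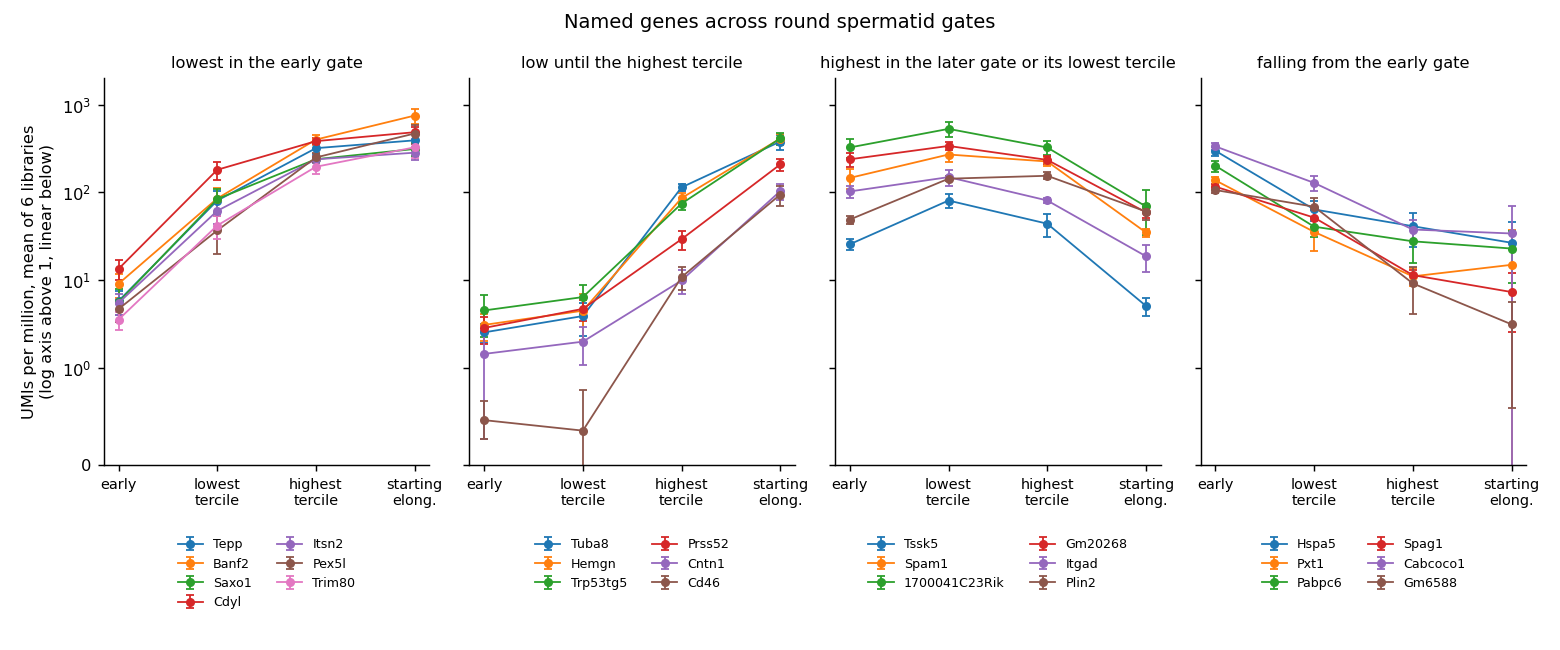
CPM (mean of 6 libraries, bars SD, log axis above 1 and linear below) of named genes in the early gate, the lowest and highest tercile of the later round spermatids and the gate starting elongation. Genes such as Tepp climb from 5.77 CPM in the early gate through both terciles, Tuba8 lies at 3.88 CPM in the lowest and 114 in the highest tercile, Tssk5 and Plin2 peak within the later gate, and Hspa5 declines from 298 CPM.

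Mitochondrially encoded mRNAs were low in most later round spermatids. All 13 mRNAs were detected, and 11 of them were 2-fold lower than in the early gate in all 6 libraries (0 higher, median -2.29). Over all genes 2.66% were lower and 7.14% higher, with a median of -0.17. mt-Co2, a subunit of cytochrome c oxidase, was at 143, 134 and 194 CPM in HFD replicates 1, 2 and 3 and 193, 246 and 131 in LFD replicates 1, 2 and 3. In the early gate it was at 1271 to 1566 CPM, 8.09-fold more. mt-Co1 was 7.69-fold, mt-Atp6 7.22-fold, mt-Co3 7.14-fold and mt-Nd4 6.76-fold lower than there. The 13 mRNAs made up 0.06998% to 0.137% of UMIs per library, against 0.567% to 0.741% in the early gate, 0.0255% to 0.148% in the elongation gate and 1.83% to 3.10% in deep barcodes with 10 or more UMIs of Piwil1, a gene of pachytene spermatocytes.

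Single cells were far apart in this respect. The median later round spermatid held 6 mitochondrial UMIs, 43 held none and 330 held 1 to 5, while 43 cells held 100 or more, up to 1970. The median was 237 in the early gate and 5 in the elongation gate. The 43 high cells, 3 to 12 in each library, gave 54.8% to 74.8% of their library's mitochondrial UMIs in later round spermatids. Without them the share was 0.0264% to 0.0374%. All 10 selected cells that ranked among probable doublets by their Scrublet score were among these 43, whose acrosome genes summed to 2138 CPM against 2569 in the other 746 cells and whose Sertoli cell genes summed to 28.0 against 11.02. The part of doublets or of free RNA in the high cells was not tested beyond these values. With the other criteria met, the median was 7 mitochondrial UMIs in cells with 3 or 4 UMIs of Ccna1 and Aurka, 13 in barcodes with 5 or 6, 40 with 7 to 9 and 149 with 10 to 19, so the level differed across the edge of the selection.

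**Figure D3:**
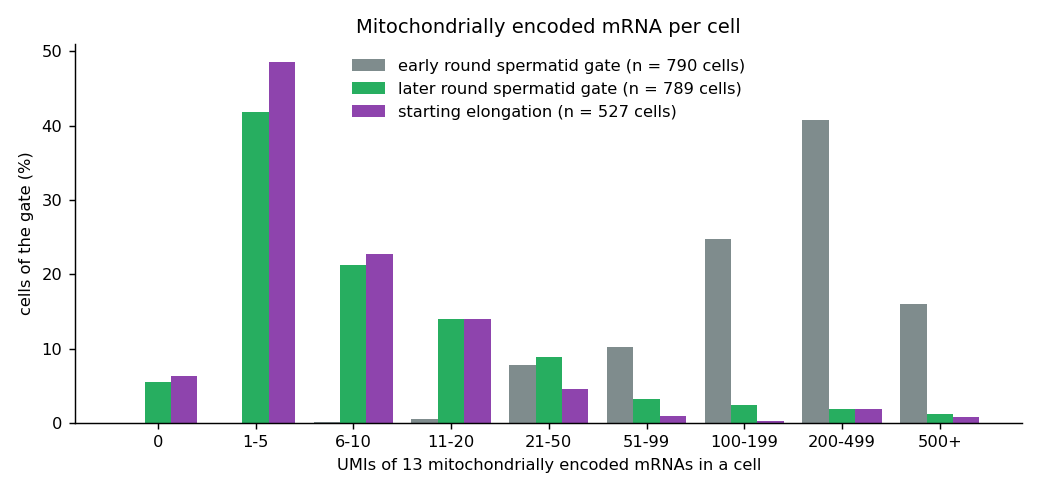
Percentage of cells of the early (n = 790), later (n = 789) and starting-elongation (n = 527) gates by their UMIs of the 13 mitochondrially encoded mRNAs, in steps from 0 to 500 or more. The later round spermatids lie with the elongation gate at the low end, with 43 cells at 100 or more, whereas 126 early barcodes held 500 or more.

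Sex-linked mRNAs were read in every cell. X-linked genes gave 1.27% to 1.46% and Y-linked genes 0.0524% to 0.0691% of the UMIs of later round spermatids per library. A spermatid carries an X or a Y chromosome, yet each of the 789 cells held at least 2 Y-linked UMIs, with a median of 19. Per 10000 UMIs of a cell, Y-linked counts had a median of 5.73, with 5% of cells below 3.44 and 5% above 8.39, and X-linked counts a median of 133, with the same bounds at 91.4 and 170.0. Across the 79 to 189 cells of a library, Spearman's rho between the X and Y rates lay between -0.134 and 0.0284. These cells share the free RNA of their library but differ in depth, which ran from 15034 to 113413 UMIs over all 789. The part of free RNA in the Y-linked UMIs was not tested.

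**Figure D4:**
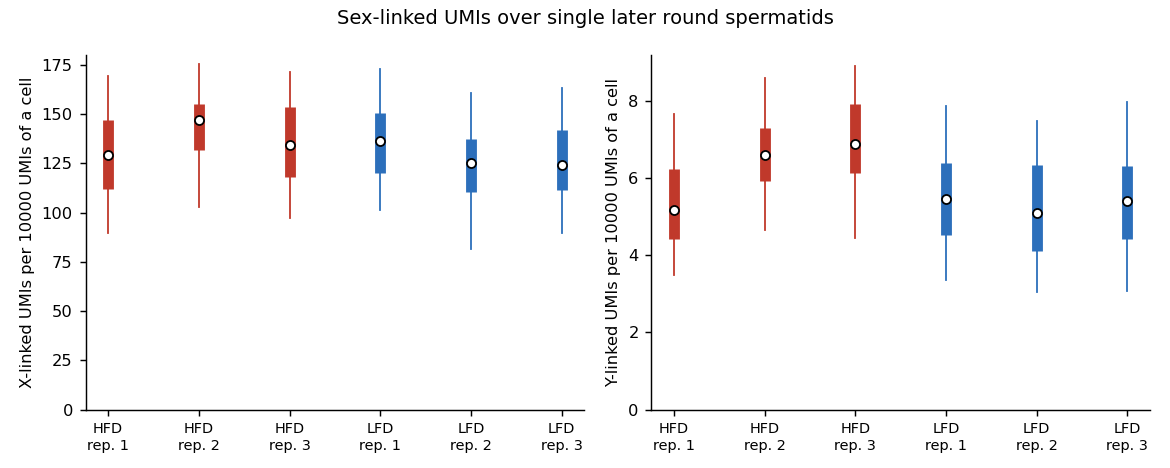
X-linked (left) and Y-linked (right) UMIs per 10000 UMIs of single later round spermatids in each library, with the median (circle), the middle 50% of cells (thick bar) and the middle 90% (thin line). Medians lie at 124 to 147 for X and 5.10 to 6.88 for Y, and the lower ends of the Y lines stay above 3.

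Eif2s3y, a translation initiation factor gene, gave 17.95% of the Y-linked UMIs, at 104 ± 13.1 CPM against 76.1 in the early gate. Sly and Ssty2, members of multicopy Y families whose reads may be shared with near-identical copies, were at 16.9 ± 2.53 and 14.5 ± 2.67 CPM, and Zfy2, a zinc finger gene, at 12.8 ± 2.14 against 4.50 in the early gate. Of 10 Y-linked genes compared none was 2-fold apart from the early gate in all 6 libraries, and of 18 X-linked spermatid genes 4 were higher and 2 lower. Over all genes 7.14% were higher and 2.66% lower. Tsga8, a testis gene, was at 1564 ± 247 CPM against 976 ± 119.8, Cypt1, a cysteine-rich nuclear protein, at 503 ± 27.7 against 161 ± 11.2, and Cypt3 and Cypt15 were higher with it, as was Akap4. Ssxb3 and Ssxb6, relatives of the Ssxb genes of the selection, were the lower ones, at 0.419 ± 0.311 and 2.70 ± 0.421 CPM against 20.4 ± 3.78 and 18.8 ± 2.31. The early gate required 5 or more UMIs of Ssxb1 and Ssxb2, and the selection under 5. The part of these bounds in the lower Ssxb3 and Ssxb6 was not tested.

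Of 12 genes of meiotic prophase compared with the early gate 0 were 2-fold apart, with a median of -0.47 beside -0.17 over all genes. Sycp3, a core protein of the synaptonemal complex, was at 25.2, 53.9 and 33.2 CPM in HFD replicates 1, 2 and 3 and 20.5, 35.9 and 23.4 in LFD replicates 1, 2 and 3. HFD replicate 2 was the highest library here, as it was for Sycp3 in the elongation gate (92.4 CPM against 12.6 to 21.8). Of 13 division genes 2 were lower than in the early gate, beside 2.66% of all genes, with a median of -1.003. They were the kinases Plk1 (44.7 ± 6.97 CPM against 127 ± 16.97) and Nek2 (14.4 ± 2.39 against 69.03 ± 13.4). Only the later round spermatids had an upper bound on Ccna1 and Aurka, with a median of 3 such UMIs against 16 in the early gate. The part of this bound in the lower division genes was not tested. Bub1, a checkpoint kinase, was at 56.5 ± 5.05 CPM, above the elongation gate (10.7 ± 2.94). Beside 7.14% of all genes, 1 of 7 spermatogonial genes compared was 2-fold higher than in the early gate. This was Kit, which encodes a growth factor receptor and has a shorter transcript in spermatids (8.21 ± 1.26 CPM against 0.326 ± 0.226).

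The study asked whether the diet of the father alters his germ cells, and the libraries labelled HFD and LFD were compared on that ground. Later round spermatids made up 9.78%, 6.32% and 13.4% of the barcodes of 15000 UMIs or more in HFD replicates 1, 2 and 3 and 12.7%, 10.6% and 14.6% in LFD replicates 1, 2 and 3. The means were 9.83% ± 3.54 (SD, n = 3) and 12.6% ± 1.97 (n = 3), and the groups overlapped (exact permutation test, two-sided, p = 0.3, the smallest possible p being 0.1). The difference of -2.80 points shrank to -1.05 when HFD replicate 2 was left out, to -1.84 without LFD replicate 3 and to -0.246 as a share of all barcodes, against -4.59 without HFD replicate 3 and -2.77 without HFD replicate 1. Median depth was 39030.0 ± 9885 UMIs in HFD and 32986 ± 826 in LFD (n = 3 each, exact permutation p = 0.4), and HFD replicate 2 was the deepest, at 49673. The difference of 6044 UMIs shrank to 723 when HFD replicate 2 was left out and grew to 10491 when HFD replicate 1 was. Within replicate 1 the difference was -3643 UMIs, and over the other 4 libraries 10888. Thinned to 15000 UMIs, a cell held 4143 ± 53.9 genes in HFD and 4115 ± 42.5 in LFD (n = 3 each, exact permutation p = 0.5). That difference of 27.7 genes ran from 6.61 without LFD replicate 1 to 58.8 without HFD replicate 1. Mitochondrially encoded mRNAs made up 0.0839% ± 0.0202 and 0.101% ± 0.0341 (n = 3 each, exact permutation p = 0.7), and without LFD replicate 2 the difference turned to 0.00157 percentage points. Within replicate 1 it was -0.0213 points and over the other 4 libraries -0.0145.

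No gene of the later round spermatids passed the test between the diet labels. Of 10979 genes tested by edgeR's quasi-likelihood test on UMIs summed per library, 0 (0%) passed a Benjamini-Hochberg adjusted p of 0.05, 503 had an unadjusted p under 0.05, and DESeq2 called 0 (250 unadjusted). The smallest adjusted p was 0.607 and the median standard error of a log2 change 0.18. In simulated counts of these libraries, 95% of 200 genes given a log2 difference of 1 were found by edgeR, beside 8 false calls. The changed genes were drawn from the more abundant ones. Genes of like level were given the same dispersion, with no GC trend between libraries. The simulation therefore does not show how many changes among scarce genes, or beneath such a trend, would be found. The groups did not overlap for 1124 genes (10.2%).

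The acrosome genes of the selection and Plin2 differed by little between the labels, with groups that overlapped for Spaca3, Spaca7 and Plin2 and lay edge to edge for Acr (HFD the lower) and Lyzl1 (HFD the higher). Acr differed by -0.18 ± 0.10 (SE) on the log2 scale (HFD minus LFD), Lyzl1 by 0.08 ± 0.09 (SE), Spaca3 by -0.21 ± 0.12 (SE), Spaca7 by -0.14 ± 0.10 (SE) and Plin2 by -0.01 ± 0.11 (SE), with edgeR adjusted p of 0.818, 0.871, 0.818, 0.818 and 0.989. Of the 38 other acrosome genes tested, 0 were called and 6 had an unadjusted p under 0.05 by edgeR, beside 503 of all 10979 genes. The groups did not overlap for 3 of the 38, beside a background of 10.2%, and the median log2 change of the 38 was 0.0019. The smallest p among them was that of Acrbp, the proacrosin-binding protein, at 567, 425 and 419 CPM in HFD replicates 1, 2 and 3 and 546, 572 and 599.9 in LFD replicates 1, 2 and 3. HFD replicate 1 lay with the LFD libraries and HFD replicates 2 and 3 below them, and the difference was -0.30 ± 0.12 (SE) with an edgeR adjusted p of 0.818. The lists of lipid (0 of 17), regulator (0 of 24), chromatin (0 of 15), tail (0 of 34), mitochondrial (0 of 12), Y-linked (0 of 8), X-linked (0 of 12), prophase (0 of 11) and division genes (0 of 13) held no call either. In that order, 2, 1, 0, 7, 3, 1, 1, 0 and 0 genes of these lists had an unadjusted p under 0.05 by edgeR. Their genes with the smallest p were Fitm1, which helps form lipid droplets (-0.45 ± 0.16 (SE)), the ciliary factor Rfx3 (0.34 ± 0.16 (SE)), Prm3 (-0.28 ± 0.15 (SE)), Tekt5 (-0.28 ± 0.11 (SE)), mt-Nd4l (-0.67 ± 0.28 (SE)), Gm20806 (0.49 ± 0.23 (SE)), Tsga8 (-0.28 ± 0.12 (SE)), Sycp3 (0.49 ± 0.24 (SE)) and Cks2 (0.46 ± 0.24 (SE)), each at an edgeR adjusted p of 0.818. Sycp3 was at 0.09 without doublet-ranked barcodes and 0.15 without HFD replicate 2, Prm3 at -0.10 and Gm20806 at 0.20 without HFD replicate 3, and Cks2 at 0.27 without LFD replicate 3 and 0.81 without LFD replicate 2. All 12 mitochondrial mRNAs tested had a negative change, with a median of -0.28, and their levels rest on the few high cells described above.

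The 5 smallest p belonged to Gm21887, Yipf4, Gm20878, D3Ertd751e and Trim80. Gm21887, an X-linked gene model, was at 0.522, 0.519 and 0.777 CPM in HFD replicates 1, 2 and 3 and 2.52, 3.63 and 5.49 in LFD replicates 1, 2 and 3. All 3 HFD libraries lay below the LFD libraries, by -2.56 ± 0.48 (SE) on the log2 scale (edgeR adjusted p = 0.607). Yipf4, a Golgi membrane protein gene, was at 22.1, 23.3 and 28.9 CPM in HFD replicates 1, 2 and 3 and 15.6, 16.2 and 14.7 in LFD replicates 1, 2 and 3. The HFD libraries were the higher ones, by 0.66 ± 0.17 (SE) (adjusted p = 0.818, edgeR). Gm20878 differed by -0.61 ± 0.16 (SE), D3Ertd751e by 0.59 ± 0.16 (SE) and Trim80 by -0.39 ± 0.11 (SE), each with an edgeR adjusted p of 0.818 and groups that did not overlap. Without HFD replicate 1 all 5 passed, with edgeR adjusted p of 0.0229 (Gm21887), 0.0269 (Yipf4), 0.0142 (Gm20878), 0.0315 (D3Ertd751e) and 0.0112 (Trim80). The 5 were picked for their small p in these same libraries, so this adds no separate evidence. Diet label and GC trend cannot be told apart in that fit, as described below. Without both replicate 1 libraries Gm21887 (0.0210) and Trim80 (0.02999) passed and the other 3 did not (0.0501 to 0.0673), and without HFD replicate 1 with the trend on GC content taken out none of the 5 did (0.154 to 0.475).

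**Figure D5:**
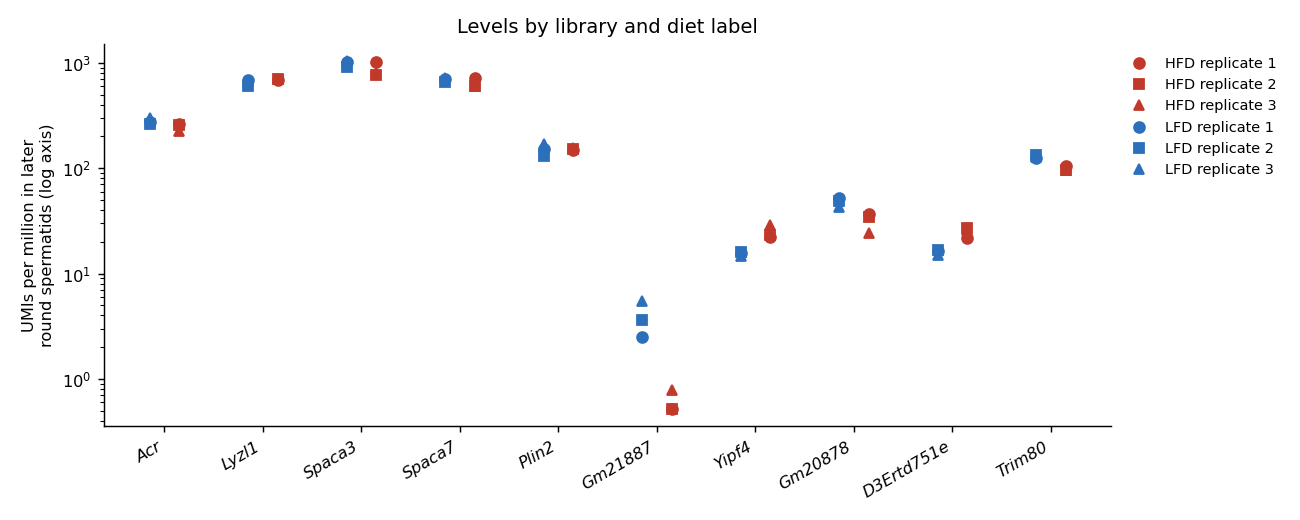
CPM (log axis) in later round spermatids of each library, for the 4 acrosome genes of the selection, Plin2 and the 5 genes with the smallest diet p, with blue for LFD, red for HFD and a marker shape for each replicate number. The groups overlap or nearly touch for the acrosome genes and Plin2, while Gm21887 lies at 0.519 to 0.777 CPM in HFD and 2.52 to 5.49 in LFD.

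The count of calls turned on HFD replicate 1. Without HFD replicate 1, edgeR called 503 of 10914 genes (4.61%), 57 higher and 446 lower in HFD. The HFD libraries left then had a GC trend (rho -0.424 and -0.380) opposite to that of the LFD libraries (0.165 to 0.330). Diet label and GC trend cannot be told apart in such a fit. The median transcript GC content was 41.0% in the higher, 56.0% in the lower and 48.0% in the genes not called. With the trend of each library on GC content taken out in the same fit, 17 genes were called, 15 of them among the 503. Without both replicate 1 libraries the count was 327 (42 higher, 285 lower). Of 38 acrosome genes 9 were then called without HFD replicate 1, 2 of them higher, for instance Acrbp at -0.50 ± 0.08 (SE, edgeR adjusted p = 0.00701), Spaca4 at -0.53 ± 0.08 (0.00701) and Izumo3, a relative of the fusion protein Izumo1, at 0.34 ± 0.08 (0.0216). Of 34 tail genes 8 were called, all lower, with Tcp11 at -0.44 ± 0.07 (0.00736), together with 2 of 17 lipid genes, Pnpla2 at -0.44 ± 0.10 (0.0218) and Bscl2, the lipid droplet protein seipin, at -0.40 ± 0.09 (0.0197), all by edgeR. With the GC trend taken out, none of the 22 calls in the lists without HFD replicate 1 passed, at adjusted p of 0.0959 or more, for instance Acrbp at -0.29 (0.166), Spaca4 at -0.21 (0.402), Tcp11 at -0.13 (0.583), Pnpla2 at -0.18 (0.5497) and Bscl2 at -0.32 (0.177). Spaca3 of the selection was at -0.40 without HFD replicate 1 (edgeR adjusted p = 0.0125) and at -0.22 (0.362) with the GC trend taken out as well.

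Whether the diet difference of a gene was unlike that in the early gate was tested as an interaction over both gates with the library as a block. Of 12589 genes 0 (0%) passed by edgeR, 683 had an unadjusted p under 0.05, and the smallest adjusted p was 0.268. Leaving out LFD replicate 2 gave 94 calls (7 higher, 87 lower), HFD replicate 2 gave 5, LFD replicate 1 gave 3 and HFD replicate 3 gave 1, while leaving out HFD replicate 1 or LFD replicate 3 gave 0.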

How the data were processed

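Single-cell RNA sequencing was done on 10x Genomics libraries of whole testis, for which the study targeted 10000 cells. The authors deposited 6 filtered matrices of raw UMI counts for 32285 genes, made with Cell Ranger 6.0.1 against mm10 per the submitters' processing notes. The labels and the study's methods name different versions of the 3-prime kit. The values are counts, so no normalization precedes them, and no other column of per-sample values was left unused (0). Diets were taken from the sample titles. The file names give the opposite diets.

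The selection and the gene lists were chosen with earlier results of these data known. The gate of early round spermatids that had been planned held 0 barcodes, so it was redefined on Ssxb1 and Ssxb2 after the data were seen. Genes were named by rule: the selection genes and Plin2, the 8 furthest apart on each side against each gate and the 5 on each side between terciles (at least 50 CPM where higher), the 10 most abundant, the 5 smallest diet p, and the most abundant and smallest diet p of each list. Genes of a list that passed a bound, and a few others set beside them such as Plin3, were named after their values were seen.

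Counts of the cells were summed per library and tested with edgeR 4.0.16 (quasi-likelihood, TMM scaling, default filter, Benjamini-Hochberg adjustment) in R 4.3.3. DESeq2 1.42.0 was an alternative. Tests were checked on simulated counts. Between gates, genes of at least 1 CPM in either were compared as log2(CPM + 5) and counted where 2-fold apart in all 6 libraries. Shares and depths were compared by exact permutation over libraries (scipy 1.17.1). Cells of a library share its source and were not treated as replicates. Scrublet (scanpy 1.11.5) marked only 16 barcodes at its own threshold, which is too few to have worked, so doublets were ranked by score at 0.8% per 1000 barcodes (3356 barcodes, 10 of them selected) and left out in an alternative. Depth per selected cell was 15034 to 113413 UMIs.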

Additional observations from a re-analysis of the deposited data

How the results depend on the processing

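These comparisons rest on 3 libraries a diet, on count bounds that move with depth, and on a diet label that the file names contradict. With all 6 libraries and the filter, no gene was called for diet under DESeq2, other gates, removal of doublet-ranked barcodes, equal cell numbers, a term for the replicate 1 libraries or removal of the GC trend. Calls were 13 without a filter on low counts, 327 without both replicate 1 libraries and 17 without HFD replicate 1 with the GC trend taken out, and 0 to 503 when each library was left out, the highest without HFD replicate 1. Calls of the interaction were 113 without a filter and 0 to 94 when each library was left out. The diet change of Lyzl1 turned to -0.0483 without HFD replicate 1 with the GC trend taken out, and ran from -0.00618 to 0.121 over the libraries left out. That of Plin2 turned to 0.055 with the GC trend taken out, 0.00728 with gates at 10000 UMIs and 0.0798 without HFD replicate 1 with the GC trend taken out, and ran from -0.124 to 0.058 over the libraries left out, and that of Igf1 ran from -0.265 to 0.0603. The difference in mitochondrial share ran from -0.0321 to 0.00157 percentage points. The cause of these shifts was not tested.

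Against the early gate, an offset of 1 CPM gave 1485 genes higher and 693 lower, and thinning before the gates 383 and 26. Against the elongation gate, an offset of 1 CPM gave 401 higher and 849 lower, and leaving out each library gave 198 to 396 higher and 522 to 727 lower. Of 554 alternative values, 515 kept their direction and side of the threshold or stayed within the bounds set for a count or value. Single genes gave 405 of the 515, and none of these genes passed in the main fit, so staying there says little. Of the values for gene counts, shares and depths, 110 stayed, 16 moved and 1 reversed. For single genes 8 values reversed. Another 14 values of single genes passed the threshold: 8 without HFD replicate 1 (Gm21887, Yipf4, Gm20878, D3Ertd751e, Trim80, Spaca3, Acrbp and Tsga8), 5 without both replicate 1 libraries (Gm21887, Trim80, Spaca3, Acrbp and Tsga8) and 1 without a filter (Gm21887).

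Same-numbered libraries of the diets did not deviate together (correlations of -0.0397, -0.00286 and 0.0539), so the numbers were not taken as pairs. With the replicate number as a block, edgeR called 0 genes (606 at an unadjusted p under 0.05), and the sign flips within numbers gave an exact p of 0.25 for the share of cells, the smallest possible.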
